A study of Mus musculus with 223 samples.

Results

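The cytoplasmic ribosomal protein genes are described here in single interneurons (INs) of the developing mouse cortex. Members were all genes whose mouse symbol begins with Rpl or Rps and goes on with a number, or with p0, p1 or p2 for the stalk proteins, with at most an a or x after the number. This rule uses names only and finds 75 of the 43629 genes counted, 46 of the large subunit and 29 of the small subunit. All 75 are annotated as protein coding, all had read pairs in each of the 7 groups of cells, and pseudogenes are not among them.

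The study isolated Htr3a-GFP+ INs by FACS from the whole cortex of transgenic C57BL/6 mice of both sexes, in which eGFP is driven by Htr3a regulatory sequences. Embryos were taken at embryonic day 18 (E18) and pups at postnatal days 2 and 5 (P2 and P5), and each age was 1 pool of embryos or pups, captured on Fluidigm C1 chips made for small cells, 2 each for E18 and P5 and 1 for P2. The paper states that P5 cortices were dissected in another solution than those of E18 and P2. They were treated with Pronase at room temperature, cooler and for longer than at the earlier ages. The chip of each cell is not given in the labels used here, so values within chips were not computed. The data comprise 82 cells at E18, 22 of type 1, 31 of type 2 and 13 of type 3 at P2, and 34, 19 and 22 of these types at P5. The types come from the authors' clustering of the same counts, so differences between types are given as descriptions, and since cells of 1 pool are not replicates no test was made for types or ages.

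Ribosomal proteins surround the ribosomal RNAs of the large and small subunits and are needed in nearly equal numbers for each new ribosome. Their mRNAs are among the most abundant of a growing cell. Many of them begin with a C followed by an uninterrupted stretch of pyrimidines at the 5′ end, the terminal oligopyrimidine motif, through which mTORC1 signalling controls their translation. In young neurons, ribosome production accompanies the growth of the cell body and its processes.

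Runs of C and T near the listed start sites were counted in the members. This is wider than the motif, since a run need not begin with a C at the first base. RefSeq promoter windows of build GRCm38.p6 matched 55 of the 75 members. A run of at least 8 bases made only of C and T that touched the 5 bases on either side of the first listed start was present in 19 of them (34.5%), against 9.20% of 16467 other protein-coding genes and 9.38% of all 32851 promoter windows. The search was on the transcribed strand only, and a match describes the letters and not a mapped 5′ end. The first base was C in 19 members, and in 13.9% of the other protein-coding genes. The windows below run 5′ to 3′ from 15 bases before to 15 bases after the start, with the longest run of C and T that touches the 5 bases on either side of the start in capitals (the first where runs are equally long). Rpl7a is shown because its run of 21 bases is the longest, and the next 5 because they hold runs of 9 to 14 bases and are described below for their levels in type 3 INs.
Rpl7a: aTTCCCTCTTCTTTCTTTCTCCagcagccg
Rpl4: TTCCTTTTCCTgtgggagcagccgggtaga
Rpl28: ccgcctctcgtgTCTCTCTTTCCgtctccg
Rpl18: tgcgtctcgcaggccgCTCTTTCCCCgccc
Rps6: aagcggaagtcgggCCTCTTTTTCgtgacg
Rps9: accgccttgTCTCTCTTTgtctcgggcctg
Rplp0: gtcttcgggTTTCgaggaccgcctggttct
Rpl41: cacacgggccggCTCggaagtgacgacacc
Rps13: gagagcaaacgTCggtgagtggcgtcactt
Rpl10: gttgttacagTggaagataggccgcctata
On the plus strand lie the windows of Rpl7a (chr2:26910792-26910821), Rpl4 (chr9:64173372-64173401), Rpl28 (chr7:4792950-4792979), Rpl18 (chr7:45718056-45718085), Rps9 (chr7:3704026-3704055), Rplp0 (chr5:115559452-115559481) and Rpl10 (chrX:74270801-74270830). On the minus strand lie those of Rps6 (chr4:86857353-86857382), Rpl41 (chr10:128549154-128549183) and Rps13 (chr7:116334176-116334205). The run of Rpl4 goes on before its window, to 14 bases in all, and ends before the listed start. The last 4 members have runs of 1 to 4 bases in this window and are shown because they are described for their levels too. The listed starts need not be the starts used in these cells.

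Levels are given in RPM, a gene's read pairs scaled to 1000000 mapped read pairs of the cell, and pooled RPM does the same with the read pairs of all cells of a group added up. Mapped read pairs ranged from 3707601 to 15840130 per cell and read pairs on genes from 1596087 to 11692823, so that counting error was small beside the spread between cells. Intervals are exact 95% Poisson intervals for pooled RPM and exact 95% binomial intervals for shares of cells. They cover only the counting error of read pairs or of cells. The read pairs hold PCR copies without molecular identifiers, so that the Poisson intervals are too narrow for transcripts. The binomial intervals take the cells of 1 pool as independent draws. At least 1 of the interneuron markers Gad1, Gad2, Dlx1, Dlx2, Dlx5 and Dlx6 exceeded 10 RPM in 78 of the 82 E18 cells, in 21 of 22, 29 of 31 and 12 of 13 cells of types 1, 2 and 3 at P2, and in all cells of P5. The 6 excitatory neuron markers summed to 134 RPM at E18, where 16 cells had 1 above 10 RPM, to 19.7, 31.8 and 0.372 RPM in types 1, 2 and 3 at P2 and to 0.956, 7.24 and 1.24 RPM at P5. The 6 cell cycle markers summed to 82.2 RPM at E18, with 37 cells above 10 RPM, to 25.8, 35.5 and 12.9 RPM at P2 and to 101, 20.6 and 4.18 RPM at P5, with 22 of 34 type 1 and 3 of 22 type 3 INs above 10 RPM. Astrocyte or radial glia markers had a summed level of 50.2 RPM at E18, while P2 cells of types 1, 2 and 3 had 111, 34.4 and 142 RPM and P5 cells 258, 1665 and 76.7 RPM. The median cell was under 10 RPM for this sum in every group, while 1 type 2 cell of P5 had 16484 RPM. Cells with such a marker above 10 RPM numbered 7 of 22, 7 of 31 and 3 of 13 in P2 types 1, 2 and 3. For the same types of P5 they numbered 15 of 34, 8 of 19 and 3 of 22, and for E18 14 of 82. The part of these marker genes in the levels below was not tested. The library names carry 4 leading numbers, here called sets A to D. Set A holds all P2 cells and no others, while sets B, C and D hold cells of both E18 and P5, so that P2 and set A cannot be told apart.

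Ribosomal protein transcripts were lower in type 3 INs than in the other groups at both ages. Summed over the 75 genes, pooled RPM was 9890 (9884 to 9897) at E18. At P2 it was 7143 (7132 to 7154) in type 1, 7707 (7697 to 7717) in type 2 and 2274 (2264 to 2284) in type 3. At P5 it was 8077 (8067 to 8086) in type 1, 7672 (7659 to 7684) in type 2 and 2071 (2064 to 2078) in type 3. Type 3 INs were thus 3.28-fold lower than the other types at P2 and 3.83-fold lower at P5. The small subunit made up between 36.8% and 42.9% of the sum in each group.

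Single cells spread widely within each group. The lowest, median and highest summed RPM were 908, 10043 and 25251 at E18. At P2 they were 1887, 6944 and 12352 in type 1, 2807, 6750 and 17363 in type 2, and 666, 1973 and 4466 in type 3. At P5 they were 2357, 8200 and 14617 in type 1, 3325, 7171 and 20633 in type 2, and 294, 1463 and 8401 in type 3. Groups other than type 3 overlapped over most of their range. Of the type 3 INs, all 13 at P2 and 20 of 22 at P5 were below the median of types 1 and 2, and 6 and 18 were below their lowest cell. The lowest E18 cell, at 908 RPM and with 28.5% of its read pairs on genes, was below all but 2 of the P2 type 3 INs, while the next E18 cell had 2960 RPM.

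**Figure D1:**
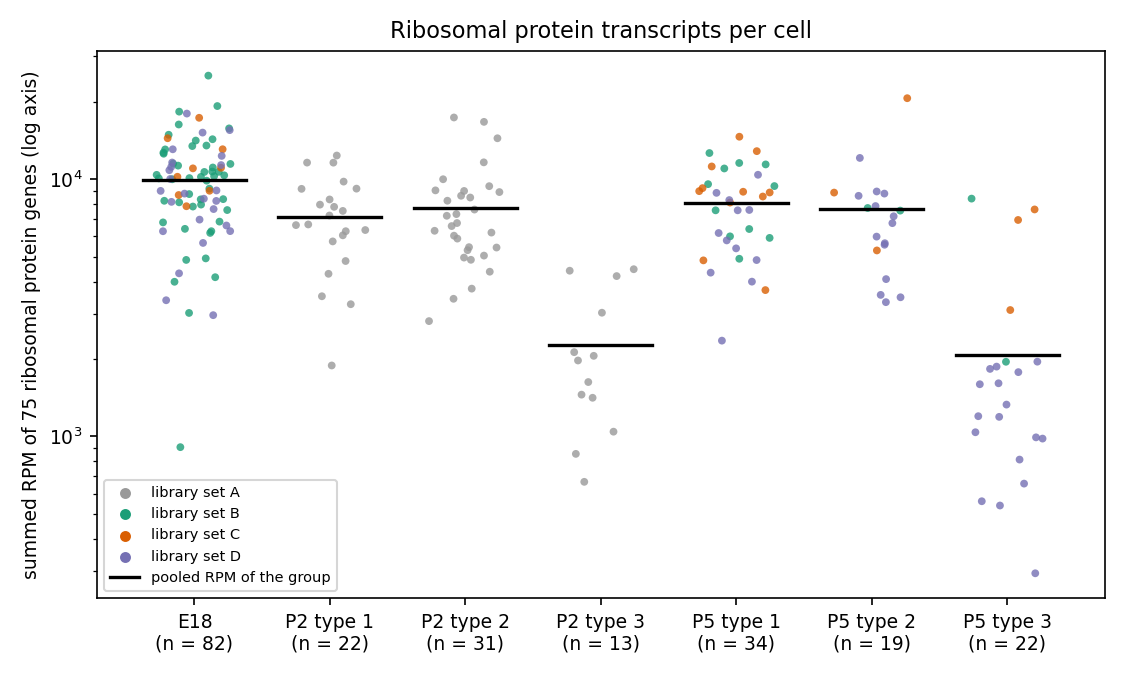
Summed RPM of the 75 ribosomal protein genes in each of the 223 cells, on a log axis, by group. Points are cells coloured by library set and black lines are the pooled RPM of the group, from 9890 at E18 to 2274 and 2071 in type 3 at P2 and P5. The 4 highest P5 type 3 INs belong to sets B and C.

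The library sets divide the P5 type 3 INs. The 17 cells of set D had between 294 and 1952 RPM, with a pooled RPM of 1163. The 5 cells of sets B and C had 1951, 8401, 3099, 7624 and 6938 RPM, 4 of them above every set D cell of type 3. In set D, types 1 and 2 had a pooled RPM of 6286 and 6499, so that type 3 was 5.50-fold lower than both together. In sets B and C together the difference was 1.65-fold, and all but 2 of their type 3 INs lay between the lowest and the highest cells of types 1 and 2. The low P5 level of type 3 thus belongs mainly to the cells of set D, while the cells of sets B and C raised the pooled value. At P2, type 3 was lower in each of the 5 library pools of set A, with a pooled RPM of 1514 to 3141 against 6027 to 9105 in types 1 and 2 of the same pool.

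The share of mapped read pairs counted on genes moved with these levels. It was 59.2% at E18, 49.7%, 53.8% and 45.1% in types 1, 2 and 3 at P2, and 55.5%, 60.8% and 34.1% at P5. Relative to read pairs on genes, the ribosomal protein genes took 1.67% at E18, 1.44%, 1.43% and 0.504% in types 1, 2 and 3 at P2, and 1.46%, 1.26% and 0.608% at P5. On this scale type 3 INs were 2.85-fold lower at P2 and 2.28-fold lower at P5. Within the range of this share seen in P2 type 3 INs, 33.3% to 64.9%, 45 cells of types 1 and 2 had a median of 6627 RPM, against 1973 RPM in the 13 type 3 INs. At P5 only 3 of the 22 type 3 INs reached the lowest share of types 1 and 2, and they had 6938 to 8401 RPM, against a median of 5471 RPM in the 22 cells of types 1 and 2 inside the range of type 3. These 3 cells belong to sets B and C, and 15 of the 22 cells to set D. The rest of the 22, type 1 INs of sets B and C, had 3705 to 9227 RPM, a range that includes the 3 type 3 INs. The other 19 type 3 INs of P5 had a lower share of read pairs on genes than any cell of types 1 and 2, and the part this plays in their level was not tested. Mitochondrial transcripts reached a pooled RPM of 14538 in P2 type 3, against 5118 and 6481 in types 1 and 2, and 8866 in P5 type 3, against 9885 and 7279, and their part was not tested either. Over all 223 cells, with values centred within the 7 groups, Pearson's r between log2 summed RPM and the share of read pairs on genes was 0.63. Part of this r is built in, since the members are counted among the read pairs on genes. With the members taken as log2 percent of read pairs on genes, r with that share was 0.35. The r of log2 summed RPM was 0.46 with log2 mitochondrial RPM and -0.05 with log2 mapped read pairs.

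**Figure D2:**
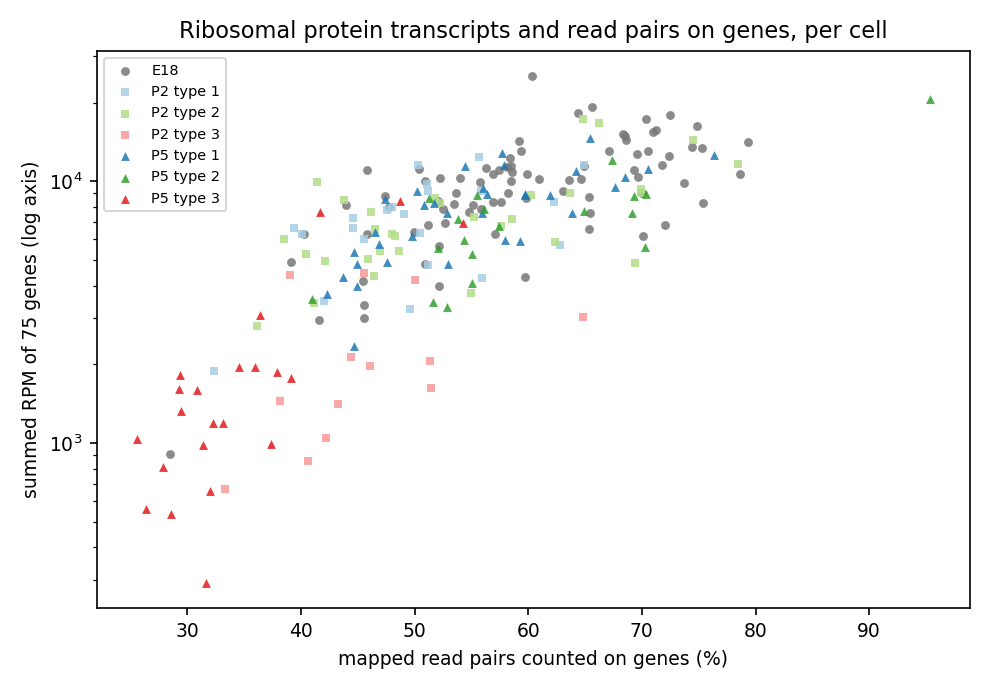
Summed RPM of the 75 genes (log axis) against the share of mapped read pairs counted on genes, with 1 point per cell, symbols by age and colours by group. Most P2 type 3 INs lie below the cells of types 1 and 2 with a similar share, while 19 of the 22 P5 type 3 INs have a lower share than any P5 cell of types 1 and 2.

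The low sum of type 3 INs went with fewer members seen per cell. The median cell had 63.5 of the 75 members above 10 RPM at E18, 54, 58 and 12 in types 1, 2 and 3 at P2, and 57, 62 and 20.5 at P5. With every cell thinned to 1596087 read pairs on genes, the median number of members with at least 1 read pair was 73 at E18, 69, 71 and 29 at P2 and 70, 72 and 44 at P5. Without thinning these medians were 74, then 70, 72 and 34, and then 70.5, 73 and 48.5. At P2, 12 of 13 type 3 INs had fewer members above 10 RPM than any cell of types 1 and 2, and at P5 20 of 22. Thinned cells of type 3 nonetheless held a median of 4930 genes with a read pair at P2 and 6679 at P5, against 5636 and 6206 in types 1 and 2.

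Every member was above 10 RPM in a smaller share of type 3 INs than of types 1 and 2, at both ages. The median share over the 75 members was 15.4% against 73.6% at P2 and 27.3% against 81.1% at P5. Among genes with a mean pooled RPM of at least 10 over the groups compared, all 73 and 74 members that passed this filter had a lower share in type 3, while this was so for 70.3% of all genes tested at P2 and 63.6% at P5. The median difference was -52.8 percentage points for members and -7.40 for the other genes at P2, and -46.4 and -4.89 at P5. In P2 type 3 INs 11 members were above 10 RPM in none of the 13 cells, for which the exact interval of the share reaches 24.7%. These were Rpl3, Rpl23a, Rpl35, Rpl38, Rps2, Rps6, Rps9, Rps10, Rps12, Rps15a and Rps24. The members seen most often there were Rpl41, one of the shortest ribosomal proteins, in 8 of 13 cells (61.5%, 31.6% to 86.1%), and Rps25 of the small subunit in 7 (53.8%, 25.1% to 80.8%). At P5, Rpl41 and Rps20 were highest, each in 14 of 22 type 3 INs (63.6%, 40.7% to 82.8%).

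**Figure D3:**
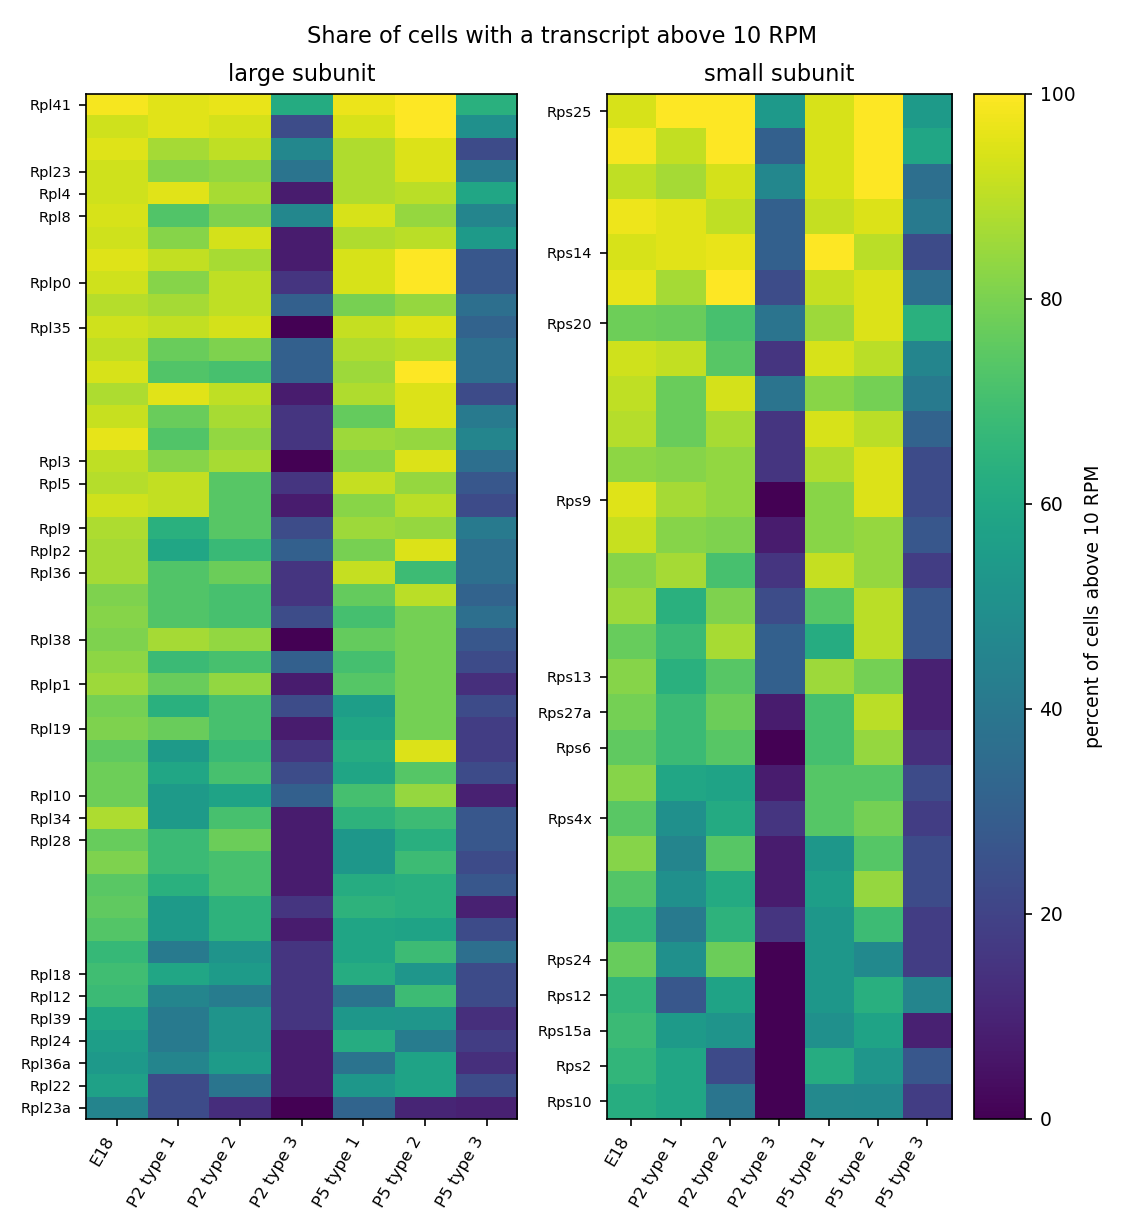
Percent of cells above 10 RPM for each member (rows, large subunit left and small subunit right, ordered by the mean share, with members described in the text labelled) in the 7 groups (columns). The type 3 columns are dark at both ages, with 2 members in at least 50% of cells at P2 and 7 at P5, against 65 to 74 members in the other groups.

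The pooled RPM of a member in type 3 often came from few cells. In P2 type 3 a median of 71.6% of a member's read pairs came from 1 cell, and for 59 of the 75 members 1 cell gave more than 50%. In P5 type 3 the median was 37.2%, with 19 such members, and in the other 5 groups it was 5.09% to 19.7% with none. Other genes tested were concentrated as well, with a median of 80.2% from 1 cell in P2 type 3 and 55.4% in P5 type 3.

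Folds of single members are on a log2(pooled RPM + 1) scale, on which differences of low genes are understated. Against types 1 and 2, 53 of 73 members tested at P2 were at least 2-fold lower in type 3 (72.6%), where 49.2% of all genes tested were, and 1 was at least 2-fold higher, where 22.8% of all genes were. At P5 64 of 74 were at least 2-fold lower (86.5%) against 46.2% of all genes, and 1 was higher against 16.5%. The median fold of the members was -1.79 at P2 and -1.92 at P5, beside -0.95 and -0.81 over all genes tested. Of the 73 members tested at both ages, 46 were at least 2-fold lower at both, where 26.9% of all genes tested at both ages were. Both subunits took part, with medians of -1.95 for the large and -1.70 for the small subunit at P2, and -1.83 and -1.95 at P5. In set D alone 67 of 74 members were at least 2-fold lower at P5, beside 47.3% of all genes, with a median of -2.56 beside -0.85 for all genes. In sets B and C 35 of 74 were, beside 56.5% of all genes, with a median of -0.96 beside -1.63. In sets B and C the members were thus less low than the median gene. Scaling shifts the median of all genes, to 0.07 at P2 and -0.45 at P5 with DESeq2 size factors, and the members' median relative to it was between -1.03 and -0.47 at P2 and between -1.21 and -1.12 at P5 under the 4 scalings tried.

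**Figure D4:**
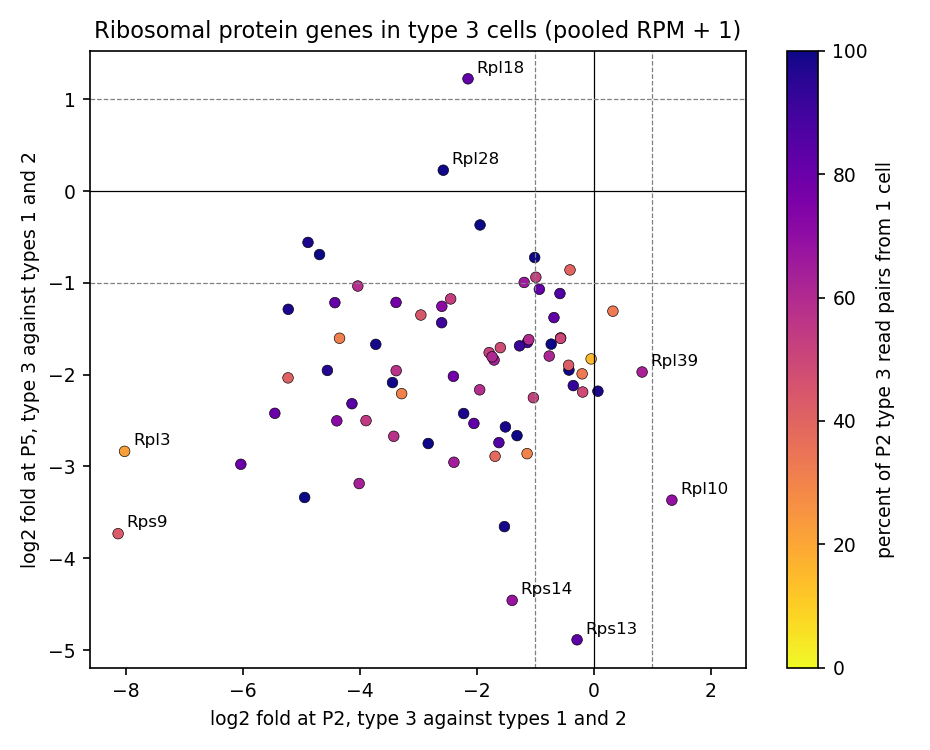
Log2 fold on the pooled RPM + 1 scale in type 3 against types 1 and 2, at P2 (horizontal) and P5 (vertical), with 1 point per member tested at both ages. Colour gives the share of the P2 type 3 read pairs that came from 1 cell. Dashed lines mark 2-fold. Most members lie below 0 on both axes, and Rpl10 and Rpl18 are past 2-fold in opposite directions at the 2 ages.

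The largest differences at P2 were those of Rps9, a small subunit protein, and Rpl3, which lies close to the peptidyl transferase centre. Rps9 had a pooled RPM of 378 at E18, 374 and 290 in types 1 and 2 at P2, and 0.168 (0.0918 to 0.282) in type 3. The lowest, median and highest P2 cells were at 0, 269 and 1261 RPM in type 1, 0, 198 and 1636 in type 2, and 0, 0 and 0.807 in type 3. No type 3 IN came near the medians of the other types, although types 1 and 2 each held a cell at 0. The log2 fold was -8.13. At P5 the values of Rps9 were 340, 310 and 23.9 for types 1, 2 and 3 (log2 fold -3.73), and 5 of 22 type 3 INs were above 10 RPM. Rpl3 was at 345 at E18, 249, 313 and 0.108 at P2 and 232, 260 and 33.1 at P5, with log2 folds of -8.02 and -2.84. Its 13 type 3 cells at P2 ranged from 0 to 0.345 RPM with a median of 0.124.

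At P5 the largest differences were those of Rps13 and Rps14, both of the small subunit. Rps13 was at 89.2 RPM at E18, 71.4, 62.6 and 54.3 at P2 and 86.1, 63.8 and 1.68 at P5, where the log2 fold of type 3 was -4.89. At P2 its fold was only -0.28, but 1 type 3 IN of 1018 RPM carried that value, and without it the pooled RPM was 9.39. Rps14 was at 311 RPM at E18, 234, 212 and 83.5 at P2 and 281, 238 and 11.1 at P5. All 34 type 1 INs of P5 had at least 54.7 RPM of Rps14, while the median type 3 IN had 0.128 and the highest 119. Its log2 folds were -1.39 and -4.46.

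Both members that were 2-fold higher in type 3 owed this to 1 cell. Rpl10, an X-linked protein that joins the large subunit late in its assembly, was at 40.8, 38.6 and 101 RPM in types 1, 2 and 3 at P2, a log2 fold of 1.34. One type 3 IN had 1007 RPM, the median was 0 and 7 of the 13 were at 0. Leaving out the highest cell of each side made the fold -0.09, and the difference of mean log2(RPM + 1) over cells was -1.44. At P5 Rpl10 was at 89.3, 59.3 and 6.74 RPM, a log2 fold of -3.37. Rpl18 of the large subunit was at 66.2, 35.99 and 131 RPM at P5, a log2 fold of 1.22. One type 3 IN of set B had 2619 RPM, the median was 0 and 13 of 22 were at 0. Without the highest cell of each side its fold was -1.87, and at P2 it was -2.15. Rpl39, also X-linked, was the second highest at P2, at 34.2 RPM in type 3 against 17.3 and 19.9, a log2 fold of 0.83. It was above 10 RPM in 2 of 13 type 3 INs, and without the highest of them the pooled RPM was 13.8. Rpl28, the second highest at P5, was at 33.2 RPM in type 3 against 29.9 and 25.3, a log2 fold of 0.23, and at 15.7 without its highest type 3 IN.

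Between ages most members were lower after birth by less than 2-fold, relative to mapped read pairs. Since P5 cortices were dissociated otherwise than those of E18 and P2, age and dissociation cannot be told apart for P5, also within library sets. The summed pooled RPM was 6759 in all P2 cells and 6489 in all P5 cells, 1.46-fold and 1.52-fold below E18. Of 74 members tested at P2, 71 had a fold below the median of all genes, and 8 were at least 2-fold lower than at E18 (10.8%) where 21.1% of all genes tested were, and 0 at least 2-fold higher where 13.5% were. At P5 67 of 74 had a fold below that median, and 6 were at least 2-fold lower (8.11%) against 19.8% of all genes, and 0 were 2-fold higher against 12.1%. The median folds were -0.61 at both ages, beside -0.19 and -0.21 over all genes tested. With the other scalings the median of all genes moved, to 0.37 at P2 and 0.22 at P5 with DESeq2 size factors, and the fold of the sum came to -0.01 and -0.19 with a median of the members of -0.08 and -0.19. Relative to the median of all genes, that of the members was between -0.45 and -0.42 at P2 and between -0.43 and -0.40 at P5 under all 4 scalings. Part of the difference came from type 3 INs, since without them the log2 fold of the sum was -0.40 at P2 and -0.32 at P5 in place of -0.55 and -0.61. Within the library sets that hold both ages, the pooled RPM was 10041 at E18 and 8513 at P5 in set B, 11675 and 9255 in set C, and 9013 and 4534 in set D. The set D value includes 17 of the 22 type 3 INs of P5.

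**Figure D5:**
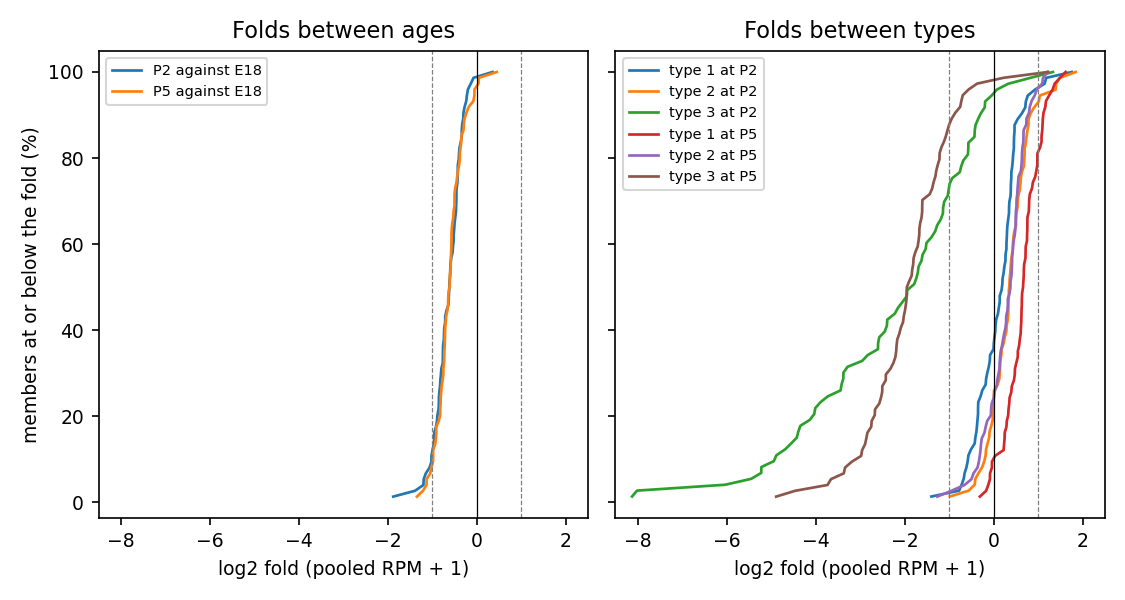
Cumulative share of the members tested (vertical, percent) at or below a log2 fold on the pooled RPM + 1 scale (horizontal), left for P2 and P5 against E18 and right for the types, each set against the remaining cells of that age. Dashed lines mark 2-fold. The age curves are steep and lie between 0 and -1 for most members, and the type 3 curves lie furthest to the left.

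The members that differed most between E18 and P5 were all of the large subunit. Rpl12, at the base of the stalk, was at 57.4 RPM at E18, 32.8, 28.9 and 20.1 in types 1, 2 and 3 at P2 and 21.4, 33.4 and 11.3 at P5, a log2 fold of -1.34 for all P5 cells. Rpl19 was at 64.99, then 58.2, 42.6 and 1.39, then 30.1, 43.7 and 5.32, a fold of -1.21. Both had lower medians in every postnatal group than at E18, but their ranges over cells overlapped in all groups. Rpl8 was at 291 RPM at E18, 174, 135 and 94.0 at P2 and 131, 204 and 59.6 at P5, and Rpl34 was at 84.9, then 44.2, 38.8 and 6.98, then 45.8, 50.1 and 10.9, both with a fold of -1.13. Rpl10 was at 127 RPM at E18 and had a fold of -1.05, and Rpl28 was the sixth member past 2-fold, at -1.02. At the other end, Rpl18 had a fold of 0.45, which came with the single P5 cell described above, and Rps20, Rpl24, Rps21 and Rpl39 lay between -0.05 and 0.05. Rps20 was at 83.8 RPM at E18, 70.3, 85.2 and 59.4 at P2 and 101, 91.5 and 53.3 at P5. At P2 the largest difference from E18 was that of the stalk protein Rplp2, at 140 RPM at E18, 27.8, 42.2 and 45.6 at P2 and 103, 91.4 and 39.3 at P5, with log2 folds of -1.88 at P2 and -0.73 at P5.

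Types 1 and 2 differed little from each other in the sum, and their folds against the other types of their age include type 3 on the other side. At P2 type 1 had 3 of 73 members at least 2-fold higher, where 25% of all genes tested were, and 1 lower, where 30.8% were. Type 2 had 6 higher against 29.3% of all genes and 0 lower against 23.8%. At P5 type 1 had 14 of 74 higher against 26.8%, and 0 lower against 22.4%, and type 2 had 3 higher against 29.2% and 1 lower against 18.4%. In each of these comparisons the share of members past 2-fold was below that of all genes, and the median folds were 0.20 and 0.36 in types 1 and 2 at P2 and 0.67 and 0.38 at P5.

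Some members nevertheless differed between types 1 and 2. Rps10 was at 51.4 RPM in type 1 and 18.4 in type 2 at P2, and above 10 RPM in 13 of 22 and 12 of 31 cells. Rps2, which lies at the mRNA entry of the small subunit, was at 34.98 and 18.9 RPM, and above 10 RPM in 13 of 22 and 7 of 31 cells, with medians of 38.03 and 2.59. Their log2 folds for type 1 were 1.76 and 1.18, and Rps10 had -0.98 in type 2. Both genes ranged from 0 upward in both types, so that the types overlapped. Rpl22 went the other way, at 21.3 RPM in type 1 and 70.1 in type 2, with log2 folds of -1.40 and 1.85. One type 2 cell of 929 RPM carried 43.8% of its read pairs there, and the medians were 0.425 and 1.23. Rpl9 was at 63.7 and 135 RPM with medians of 39.2 and 76.5 and a fold of -0.77 in type 1, and Rps12 at 25.6 and 54.4 with medians of 1.26 and 13.5 and a fold of 1.49 in type 2.

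At P5, Rpl36 was at 83.8 RPM in type 1 and 32.1 in type 2, with cell medians of 65.9 and 29.1 and log2 folds of 1.62 and -0.95. Rpl5, which binds the 5S ribosomal RNA, was at 220 and 128 RPM with medians of 160 and 99.2 and a fold of 1.5 in type 1. Rpl23 was at 120 in type 1 and 218 in type 2, but its medians were 90.8 and 109 and 1 type 2 cell reached 1125 RPM, so that its fold of 1.22 in type 2 rests in part on that cell. Rpl14 had a fold of -0.17 in type 1, where it was at 72.02 RPM against 109 in type 2. Set D holds 12 of the 34 type 1 and 14 of the 19 type 2 INs of P5. In sets B, C and D the members summed to 9102, 8994 and 6286 RPM in type 1, and to 7605, 12514 and 6499 in type 2. Single members were not compared between types 1 and 2 within sets. At P2 types 1 and 2 were closer for 3 of these members, with Rpl36 at 52.7 and 43.6, Rpl5 at 169 and 178 and Rpl23 at 184 and 149 RPM.

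Levels are compared between genes per kb of exon length, since longer transcripts give more read pairs. Over all cells the highest member was Rpl4, at the wall of the exit tunnel, with 227 RPM per kb, and Rps29 with 194, Rpl32 with 184 and Rplp0 with 167 were also among the highest. The lowest were Rps24 with 5.34, Rps15a with 7.55, Rpl23a, which lies at the exit of the tunnel, with 9.79, Rpl12 with 10.4 and Rpl35a with 13.1. Proteins needed in nearly equal numbers thus differed by over an order of magnitude in read pairs per kb. The length used matters for this order, because merged exons include retained introns and rare transcripts. With the length of 1 main transcript, Rps9, Rps14, Rps29 and Rpl32 were highest at 411, 407, 344 and 342 RPM per kb, and Rpl23a, Rps20, Rpl24, Rpl12 and Rps2 lowest at 14.8, 22.3, 22.5, 30.1 and 34.01, so that 2 of the 5 highest and 2 of the 5 lowest were shared. In single groups Rpl4 was at 441 RPM at E18, 611, 679 and 26.8 at P2 and 463, 453 and 118 at P5. Its P2 type 3 value came almost wholly from 1 cell of 233 RPM, and without it the pooled RPM was 1.13.

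The stalk proteins, which recruit the elongation factors to the ribosome, were each lower in P5 type 3. Rplp0, which anchors the stalk, was at 357 RPM at E18, 191, 334 and 94.4 at P2 and 265, 292 and 20.9 at P5. In P2 type 3 1 cell had 1015 RPM and without it the pooled RPM was 1.32. Rplp1 was at 86.5, then 60.1, 54.5 and 19.3, then 56.8, 56.1 and 8.69. At P2 the log2 fold of Rplp2 in type 3 was 0.33, with 4 of 13 cells above 10 RPM. The log2 folds of type 3 at P5 were -3.66 for Rplp0, -2.57 for Rplp1 and -1.31 for Rplp2.

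Rps6, the small subunit protein that S6 kinase phosphorylates, was at 82.8 RPM at E18, 70.7, 73.3 and 0.120 at P2 and 64.3, 65.96 and 7.37 at P5. In P2 type 3 only 10 read pairs of Rps6 were counted over 13 cells. Rps27a, made as a fusion with ubiquitin, was at 118 RPM at E18, 58.7, 76.6 and 27.2 at P2 and 89.4, 85.5 and 13.1 at P5, and its P2 type 3 value was 0.0522 without 1 cell of 334 RPM. Of the X-linked members, Rps4x was at 130 RPM, then 109, 122.8 and 86.97, then 110, 70.4 and 24.1, and Rpl36a at 36.6, then 39.5, 34.95 and 21.9, then 30.6, 36.99 and 9.64. Both P2 type 3 values again came from 1 cell each, of 1237 and 280 RPM, and were 0.980 and 0.0911 without it.

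The members moved together from cell to cell only loosely. With log2(RPM + 1) centred within the 7 groups, the correlation of a member with the sum of the others over 223 cells had a median r of 0.35 and ranged from 0.14 to 0.53. It was highest for Rps27 (0.53), Rpl37a (0.51) and Rpl41 (0.50) and among the lowest for Rpl12 and Rps20 (0.14 each). Over the 2775 pairs of members the median r was 0.17, beside 0.03 for pairs of other expressed genes of similar pooled RPM. At E18 alone it was 0.26, at P2 0.11 and at P5 0.13. All these points share the library and its share of read pairs on genes, and values this weak are given as a description. The other genes most like the sum of the members over the 223 cells were Gm11223 and Rps27rt (r = 0.54 each), Gm15500 (0.51), Ubb, which encodes polyubiquitin (0.50), and Gm13456 (0.50). Rps27rt shares stretches of 50 identical bases with Rps27, and Gm15500 with Rpl5, so that their read pairs may come from the members.

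The mouse genome holds processed copies of many ribosomal protein genes, with which the members share sequence. In the main transcript of a member a median of 59.9% of the 50-base windows occur in another annotated gene as well, up to 98.6% in Rps27. Whether read pairs that map to several places were counted is not given in the sources used here. The more and the less shared members had median type 3 folds of -1.87 and -1.70 at P2 and -1.81 and -1.97 at P5, so that the low level in type 3 was seen in both. The 246 annotated pseudogenes of ribosomal proteins summed to 164 RPM at E18 and to 31.9 and 55.9 RPM in type 3 at P2 and P5, against 143 and 130 in types 1 and 2. Exons of 36 members overlap those of another gene, 15 of them over more than 10% of their length.

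Other genes of protein synthesis are given beside all genes tested, of which 49.2% were at least 2-fold lower and 22.8% higher in type 3 at P2, and 46.2% lower and 16.5% higher at P5. Of 8 elongation factors tested, 7 were at least 2-fold lower at each age, with medians of -2.84 at P2 and -2.34 at P5, and Eef2k, the kinase of elongation factor Eef2, was higher at P5 with a fold of 1.57. Eef1a1, which delivers aminoacyl-tRNA to the ribosome, was at 1614 RPM at E18, 1221, 1356 and 224 at P2 and 1146, 1304 and 172 at P5. Of the initiation factors 17 of 29 were at least 2-fold lower at P2 and 20 of 31 at P5, with none higher. Of the mitochondrial ribosomal proteins 24 of 39 were lower and 9 higher at P2, and 21 of 44 lower and 3 higher at P5, of which the share higher at P2 and the share lower at P5 were close to those of all genes. Of the ribosome biogenesis genes 9 of 23 were lower and 4 higher at P2, and 12 of 22 lower and 3 higher at P5. Of the genes of mTORC1 and Myc regulation 7 of 8 were lower and 0 higher at P2, and 6 of 11 lower at P5, where Rptor, a subunit of mTORC1, was higher with a fold of 1.88. Rack1, Rpsa and Fau, ribosomal proteins whose symbols the rule does not match, were at least 2-fold lower at both ages. Of the paralogues of the members 2 of 4 were lower and 2 higher at P2, and 5 of 5 were lower at P5.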

How the data were processed

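The authors sequenced SMARTer libraries of single cells and deposited a table of counts of read pairs per gene for each of the 223 cells. The submitters' processing notes name TopHat2 and HTSeq 0.6.1, and the genome was mouse GRCm38. The handling of strand and of read pairs that map to several places is not given in the sources used here. The authors checked capture sites by microscope, and no doublet caller was run here. All columns were used.

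Gene IDs were matched to GENCODE M21 symbols (42548 of 43629). RPM was computed with the coefficients given in the labels, groups of cells were pooled, and folds were log2 ratios with a pseudocount of 1 RPM. A gene was tested where the mean of both pooled values was at least 10 RPM, and counted as higher or lower at 2-fold. Since each age is 1 pool of brains, no significance test was made. Mapped read pairs were 3707601 to 15840130 per cell and read pairs on genes 1596087 to 11692823, and intervals are exact 95% Poisson or binomial intervals. Members and lists were chosen with earlier results of these data known, and so no list is independent evidence. Members named are the 5 highest and lowest per kb, the 5 highest and lowest folds from E18 to P5, the 2 highest and lowest folds of each type, the 3 highest and lowest correlations, the stalk, Rps27a, Rps6 and X-linked members. Members in none of the P2 type 3 INs above 10 RPM, Rps25, Rpl28 in the comparison of ages and Rplp2 at P2 were named after their values were seen. Some members that the rule names are not reported here. Sequences are from RefSeq (GRCm38.p6).

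Alternatives were another pseudocount, read pairs on genes, edgeR's TMM and DESeq2's size factors as scaling, mean or median of cells, and omission of the highest cell or members. Library sets or pools alone or left out, omission of type 3, thinning and main transcript lengths were added after seeing the data. The fold calculation was tested on simulated data for P5 type 3 against other P5 cells. There 99.5% of 200 changed genes had the right sign, and 5.43% of the unchanged genes scored passed 2-fold. The share that would pass in the real cells was not tested. Scaling factors came from DESeq2 1.42.0 and edgeR 4.0.16 in R 4.3.3, all other values from scipy 1.17.1, pandas 2.3.3 and numpy 2.4.6 in Python 3.11.15, and plots from matplotlib 3.10.9.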

Additional observations from a re-analysis of the deposited data

Results flagged for a closer look

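Rpl10 and Rpl18 were past 2-fold in opposite directions in type 3 INs at the 2 ages. Relative to types 1 and 2, Rpl10 had a log2 fold of 1.335 at P2 but of -3.367 at P5. Rpl18 had -2.148 at P2 but 1.222 at P5. The difference between ages was not tested, since each age is 1 pool of brains. In both cases the higher value came from 1 cell, which gave 69.03% of the Rpl10 read pairs of P2 type 3 and 90.7% of the Rpl18 read pairs of P5 type 3.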

How the results depend on the processing

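Log2 folds of the summed RPM are given here in the order P2 against E18, P5 against E18, type 1 at P2, type 1 at P5, type 2 at P2, type 2 at P5, type 3 at P2 and type 3 at P5. Per read pairs on genes they were -0.34, -0.41, 0.19, 0.49, 0.26, 0.0058, -1.51 and -1.19. With TMM they were -0.16, -0.30, 0.27, 0.61, 0.054, 0.14, -1.18 and -1.58. With DESeq2 size factors they were -0.0062, -0.19, 0.29, 0.58, -0.068, 0.22, -0.86 and -1.63, so that the P2 difference from E18 was close to 0 and that of type 2 at P2 was below 0. By the mean of cells they were -0.64, -0.71, 0.25, 0.79, 0.51, 0.39, -1.72 and -1.83, and by the median of cells -0.69, -0.74, 0.35, 1.24, 0.49, 0.29, -1.77 and -2.38. By the mean over members they were -0.64, -0.61, 0.12, 0.65, 0.35, 0.28, -2.28 and -1.93. Without the highest cell of each group they were -0.59, -0.67, 0.15, 0.88, 0.38, 0.19, -1.78 and -2.09, and without the 5 highest members -0.64, -0.62, 0.13, 0.66, 0.34, 0.33, -1.39 and -1.78. The cause of these shifts was not tested. Without type 3 the differences from E18 were -0.40 and -0.32. For P5 against E18, type 1, type 2 and type 3 at P5, set B alone gave -0.24, 0.42, -0.19 and -0.69, set C -0.34, -0.13, 0.56 and -0.77, and set D -0.99, 0.75, 0.87 and -2.46. The fold of type 3 was below 0 in each of these settings. Among P5 cells with a like share of read pairs on genes it was not. There 3 type 3 INs had a median of 7624 RPM and 22 cells of types 1 and 2 a median of 5471 RPM. The type 3 INs came from sets B and C and 15 of the others from set D. The rest of the 22, type 1 INs of sets B and C, had 3705 to 9227 RPM, a range that includes the 3 type 3 INs.

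Members at least 2-fold lower than at E18 numbered 3 at P2 and 2 at P5 with a pseudocount of 10 RPM, 2 and 2 per read pairs on genes, 2 and 1 with TMM, 1 and 0 with DESeq2 size factors, and 4 and 2 without type 3. At P5 they were 10 in set C and 39 in set D, and 1 member was 2-fold higher in set B and 2 in set C. Members higher in type 1 were 1 at P2 and 8 at P5 with 10 RPM, 5 and 5 per read pairs on genes, and 8 at P5 with DESeq2. Members higher in type 2 at P5 were 1 with 10 RPM, TMM or DESeq2 and 0 per read pairs on genes, and lower members were 2 with each of the 3 other scalings. At P2, 2 members were higher in type 2 with DESeq2, and lower were 1 per read pairs on genes, with TMM or with a pseudocount of 0.1 RPM and 2 with DESeq2. In type 3 at P2, 2 members were higher per read pairs on genes, with TMM or without library pool 3 or 5, and 3 with DESeq2. In type 3 at P5, 0 were higher in set D, and 35 were lower in sets B and C together. No setting that left out 1 library pool moved the count of members lower in type 3 at P2 by over 1.5 times.

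Rpl10 in type 3 at P2 was at -0.092 without the highest cell of each side and -1.44 by the mean of log2 values, Rpl18 in type 3 at P5 at -1.87 and -2.42, and Rpl18 in type 2 at P5 at 0.17 by the mean of log2 values. The median r over pairs of members was 0.143 per read pairs on genes, 0.160 by Spearman, 0.264 at E18, 0.107 at P2 and 0.134 at P5. Of the 5 highest members per kb, 3 were shared with the longest and 2 with the main transcript, and of the 5 lowest 2 with the main transcript. No paired analysis was possible because the replicate numbers only name cells and pair none, and values within library sets and pools are given in its place.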
